A study of Equus caballus with 45 samples.

Results

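The cytosolic ribosomal protein genes are the genes of the small subunit (RPS) and the large subunit (RPL and RPLP) of the ribosome outside the mitochondria. Membership was set by gene symbol alone, as RPL or RPS followed by a digit, together with RPSA, RPLP0, RPLP1 and RPLP2, leaving out the RPS6K kinases and the RPS19BP and RPL7L genes. This choice was made with earlier results of these data known. The rule found 71 of the 20881 genes listed in both count tables, of which 30 code for small subunit proteins, 36 for large subunit proteins and 5 for paralogues that carry a near copy of another member (RPL3L, RPL10L, RPL22L1, RPL26L1 and RPL36AL). RPLP1, RPL36A and some other members of the family were not analysed here.

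RNA sequencing of equine cells gave 45 libraries. Bone marrow mesenchymal stromal cells (MSC) of the donors PC, 99 and 92, horses of 3 to 4 years, were left untreated, given the TLR3 agonist poly I:C or the STING agonist 2′3′-cGAMP, or labelled CpG, with 1 library per donor and condition. The agonists were given for 2 h, at 10 ng/mL by the sample labels and at 10 µg/mL by the series' design, and no dose is given for CpG. Synoviocytes, chondrocytes and macrophages each received IL-1β plus TNF-α and were then treated for 24 h with the conditioned medium (CM) of MSC that were resting, TLR3-activated (TLR-MSC-CM) or STING-activated (STING-MSC-CM), collected from MSC donors named PC, ORC and AG1, with 1 library per donor and medium. Each joint cell type also had 1 library with the cytokines only and 1 with no addition. By the study's methods, the joint cells were washed after treatment and cultured for 24 h more before lysis. The MSC were washed after the agonist and lysed 24 h later. Values with agonist, cytokines or CM are thus from cells no longer in contact with them. The labels give the cytokines at 20 ng/mL for synoviocytes and at 10 ng/mL for macrophages, while the study's methods give 20 ng/mL for macrophages too. By the study's methods each kind of joint cell came from 1 horse, and its replicates are read here as differing in the MSC donor of the medium. Cell type and culture of origin therefore cannot be told apart, and p-values measure only the spread between these libraries. Titles of the libraries without MSC medium also carry these names: PC for synoviocytes with cytokines only and ORC for the rest. What the name stands for there is not given.

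A ribosome is built in the nucleolus from ribosomal RNA and one copy of nearly every ribosomal protein, and in excess its parts are degraded. Ribosomal protein mRNAs carry a 5′ terminal oligopyrimidine tract, through which mTOR signalling sets their translation, and they are among the most abundant mRNAs of growing cells. Some members have a further known role: RPS6 is phosphorylated by the RPS6K kinases, RPL5 and RPL11 bind MDM2 when ribosome assembly fails, RPL13A takes part in silencing inflammatory transcripts after interferon, RPSA is also a laminin receptor, RPS27A is made as a fusion with ubiquitin, and RPLP0 with RPLP2 forms the stalk that recruits elongation factors.

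Total counts were 23525704 to 54103873 per library. The macrophages carried PTPRC at 1115 to 1433 CPM (counts scaled to the library's total, with TMM factors set within each table), against at most 0.190 CPM in the other joint cells, but their cultures also held lymphoid markers at 210 to 370 CPM in sum, with CD3E at 60.4 to 122 CPM. Of the listed macrophage markers, CD68 (3219 to 4307 CPM) and MRC1 (2117 to 4618 CPM) were high in these cultures. CD14 (15.9 to 32.1 CPM), ITGAM (3.53 to 5.61 CPM) and LYZ (1.66 to 3.47 CPM) were low there. The chondrocytes held almost no COL2A1 (0 to 0.383 CPM), while ACAN stood at 6.07 to 97.2 CPM. The TLR3 agonist library of donor 92 stood apart: its summed level of 9 interferon-induced genes was 140 CPM, against 170.6 CPM in the untreated library of that donor, whereas the level went from 159.65 to 9073 CPM in donor PC and from 259.8 to 7342 CPM in donor 99. MSC results with the TLR3 agonist are therefore also given without that library.

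Of the 71 members, 64 had 47797 to 3180429 counts over the 45 libraries (median 777721). The other 7 were sparse. RPL10L was listed at 0 in every library, RPL3L had 19 counts and RPS23 had 90 counts in all, and RPL36, RPS4X, RPL11 and RPS10 had 7850, 7915, 22992 and 35133 counts. RPS23, RPL11, RPL36, RPS4X and RPS10 are core ribosomal proteins, so their low counts cannot be read as low expression: ribosomal protein genes have many near-identical copies in mammalian genomes, between which the counting could split or drop reads, and this was not tested. All further values of these members rest on few counts. Levels of different members are not compared with each other, since no transcript lengths were used. In bulk samples, fewer cells of a type and less RNA per cell cannot be told apart.

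The share of a library's counts that fell on the 71 members was highest in MSC and lowest in macrophages. It was 5.51%, 7.65% and 7.85% in untreated MSC of the donors PC, 99 and 92 (7.01% ± 1.30, SD, n = 3). With resting MSC-CM it was 2.65%, 2.92% and 2.56% in synoviocytes of the media PC, ORC and AG1 (2.71% ± 0.185, SD, n = 3), 2.27%, 2.61% and 2.27% in chondrocytes (2.38% ± 0.195, SD, n = 3) and 1.62%, 1.75% and 1.98% in macrophages (1.78% ± 0.185, SD, n = 3). The macrophage libraries thus lay below all synoviocyte and chondrocyte libraries of that medium, while chondrocytes and synoviocytes overlapped. The MSC and joint cell tables are separate sets, so cell type and set cannot be told apart there. The step between them also goes with the absence of cytokines in MSC. With no addition, the single libraries of synoviocytes, chondrocytes and macrophages had shares of 3.65%, 3.58% and 2.11%, against 4.23% in the lowest MSC library. The part of the cytokines in the step was not tested.

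**Figure D1:**
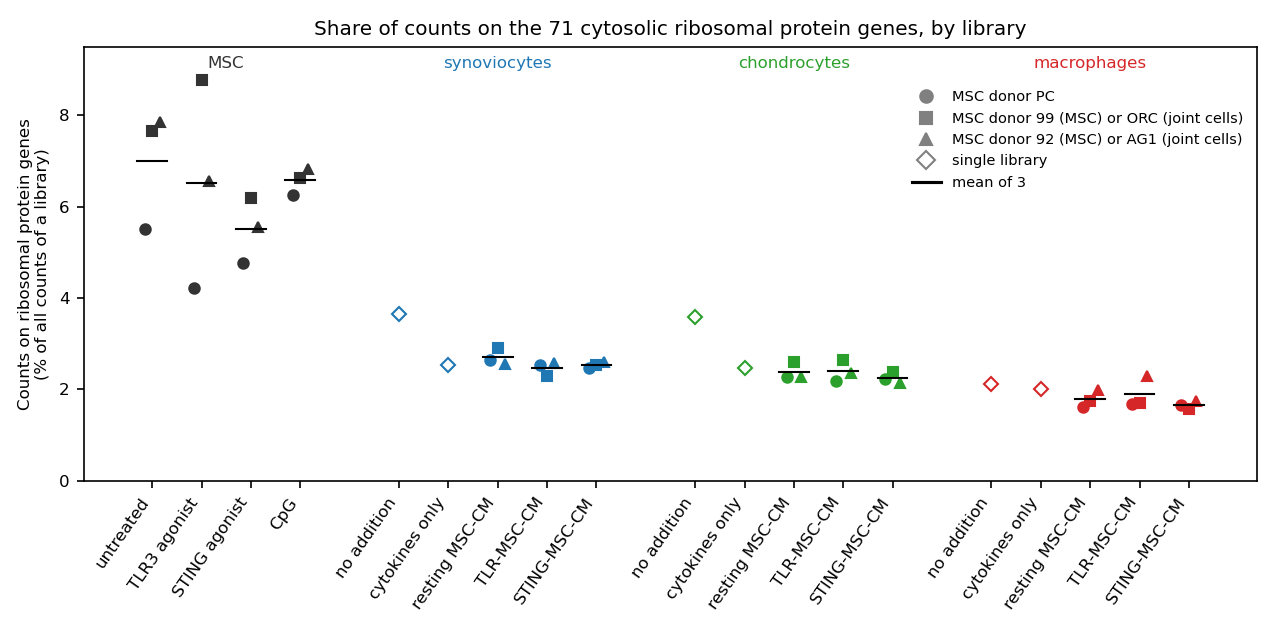
Share of each library's counts on the 71 cytosolic ribosomal protein genes, in percent, by cell type and condition. Each point is 1 library, its shape gives the MSC donor, the black line is the mean of 3 libraries and open diamonds are single libraries. MSC libraries lie between 4.23% and 8.77%, and the no addition libraries of synoviocytes (3.65%) and chondrocytes (3.58%) stand above the other 10 libraries of their cell type.

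In MSC given the STING agonist, the share was 4.76%, 6.19% and 5.56% in the donors PC, 99 and 92, lower than in the untreated library of each donor (5.50% ± 0.714, SD, n = 3). Per gene, 67 of the 69 members tested had a negative log2 fold change and the median was −0.33, against 0.03 for other genes of like abundance, that is, with a mean level between the 5th and 95th percentiles of the members. This band is wide, since its lower edge lies among the members of lowest counts. In the cytokine comparisons it held 4992 of 14759 genes in synoviocytes, 6014 of 14490 in chondrocytes and 7245 of 15175 in macrophages. Like abundance is thus a coarse match throughout, not made gene by gene. The small and large subunit members had medians of −0.37 and −0.34. No member had an adjusted p-value under 0.05 in edgeR's quasi-likelihood test (Benjamini-Hochberg adjusted over all genes), and no gene of the whole table did (0% called). The interferon-induced gene ISG15 was not called either, at a log2 fold change of 7.26 here and 6.84 after the TLR3 agonist. These fits had no term for donor, and with MSC donor as a block no member was called either. Their spread was estimated over all 3 conditions, including the TLR3 agonist library of donor 92 that stood apart. The STING agonist comparison was not refitted without that library. The absence of a call in MSC therefore does not show that the members were unchanged. With DESeq2, 93 genes were called and 0 members, and 312 genes (2.1%) but 0 members had an unadjusted p-value under 0.05. For 12 of 69 members every STING agonist library lay below every untreated library, against 2.58% of all genes, and 53 of 69 were lower in each of the 3 donors, against 14.7% of all genes.

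RPL5 stood at 654, 717 and 705 CPM in the STING agonist libraries of the donors PC, 99 and 92 and at 847, 1117 and 1117 CPM in the untreated libraries. The groups did not overlap, and the log2 fold change was −0.55 (SE 0.25, adjusted p = 1). RPL4, a large subunit protein near the exit tunnel of the nascent chain, stood at 1548, 1567 and 1785 CPM against 2065, 2528 and 2563 CPM, again without overlap (log2 fold change −0.52, SE 0.24, adjusted p = 1). RPS3A, a small subunit protein, had the largest of these differences, with 884, 1119 and 918 CPM against 1178, 1723 and 1708 CPM (log2 fold change −0.64, SE 0.31, adjusted p = 1).

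The paralogue RPL26L1 had a positive value instead. It stood at 286, 289 and 178 CPM after the STING agonist and at 219, 213 and 217 CPM untreated, higher in the donors PC and 99 and lower in donor 92, so that the groups overlapped (log2 fold change 0.24, SE 0.25, adjusted p = 1). RPSA was also nearly level in 2 donors, at 1018 and 1053 CPM against 1005 and 1032 CPM in PC and 99, and lower in donor 92 (1232 against 1549 CPM).

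The size of the difference was not the same in the 3 donors. The median log2 difference of the members between the STING agonist and the untreated library was −0.16 in donor PC, −0.29 in donor 99 and −0.63 in donor 92, with 57, 58 and 69 of 69 members lower, where 45.6% to 55.1% of genes of like abundance were lower. Untreated MSC of donor 92 also had the highest summed level of 14 proliferation genes, 2179 CPM against 332 CPM in PC and 638 CPM in 99, and this sum moved to 1680, 368 and 1192 CPM after the STING agonist. The part of proliferation in the member values was not tested.

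After the TLR3 agonist the donors went in different directions. The share of counts was 4.23%, 8.77% and 6.56% in PC, 99 and 92 (6.52% ± 2.27, SD, n = 3), and the median log2 difference from the untreated library was −0.36 in PC, 0.33 in 99 and −0.32 in 92, with 65, 2 and 69 of 69 members lower. The fitted median over the 3 donors was −0.02, and −0.01 without the library of donor 92 that stood apart. No member and 0% of all genes were called by edgeR, 48 genes and 0 members were called by DESeq2, and 171 genes (1.15%) and 0 members had an unadjusted p-value under 0.05. In no member did the TLR3 agonist libraries lie entirely below the untreated ones, against 0.975% of all genes. RPL5 (log2 fold change −0.20), RPL4 (−0.18) and RPL7 (−0.18) had the smallest p-values on the lower side and RPL26L1 (0.20) on the higher side, and the first 3 turned positive with the donor PC library of the TLR3 agonist left out.

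Between the STING and TLR3 agonists the median was −0.31, with 68 of 69 members negative. This value rested on 1 library: with donor 99 left out of the TLR3 agonist group it was 0.04, and with donor 92 left out it was −0.34. RPL10 (log2 fold change −0.44), RPS3A (−0.48) and RPL13 (−0.44) had the smallest p-values, and the call rate was again 0% for all genes, with 36 genes (0.242%) and 0 members at an unadjusted p-value under 0.05 and 1 gene and 0 members called by DESeq2. No member had its STING agonist libraries entirely below its TLR3 agonist libraries, against 0.867% of all genes.

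The CpG libraries had shares of 6.26%, 6.64% and 6.83% in PC, 99 and 92, the narrowest spread of the MSC conditions (6.58% ± 0.291, SD, n = 3). Against untreated MSC the members were higher in donor PC (median log2 difference 0.24, 0 of 70 lower) and lower in 99 and 92 (−0.24 in both, 66 and 67 of 70 lower). The fitted median was −0.11, no member or other gene was called by edgeR (0%) or by DESeq2, and 46 genes (0.305%) and 0 members had an unadjusted p-value under 0.05. No member lay below untreated MSC in every library, against 1.19% of all genes. On the lower side RPL36 (log2 fold change −0.32), RPS25 (−0.26) and RPL23 (−0.21) had the smallest p-values, and on the higher side RPL11 (0.29) and RPS4X (0.38), both on few counts, as is RPL36. In donor 92 the proliferation sum went from 2179 CPM untreated to 865 CPM with CpG, and its part was not tested.

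**Figure D2:**
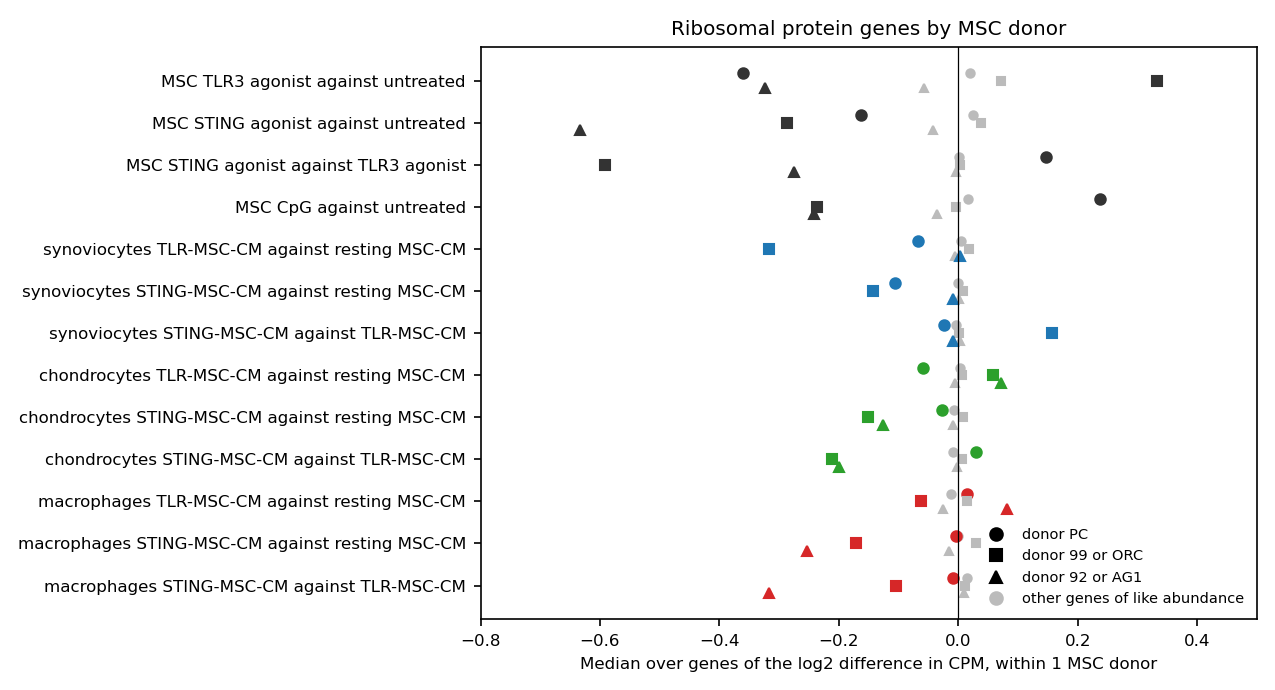
Median over the members of the log2 difference in CPM between 2 libraries of the same MSC donor, for each of the 13 comparisons within a cell type (coloured points, shape by donor), with the median of other genes of like abundance in grey. After the TLR3 agonist the donor values are −0.36, 0.33 and −0.32, after the STING agonist all 3 are below 0, and in joint cells all lie between −0.32 and 0.16.

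In synoviocytes the activated media gave small differences. With TLR-MSC-CM the share was 2.53%, 2.30% and 2.59% in the donors PC, ORC and AG1, and 65 of 68 members tested were lower than with resting MSC-CM (median log2 fold change −0.14, against −0.01 in genes of like abundance). No member passed the test and 0% of all genes were called, 2 genes and 0 members were called by DESeq2, and 15 members, all lower, had an unadjusted p-value under 0.05, against 5.11% of all genes that were lower at that level. The donor medians were −0.07, −0.32 and 0.00, with the value of donor ORC apart from the other two. The summed level of the 9 interferon-induced genes was 88.1, 183 and 96.2 CPM in PC, ORC and AG1. With resting MSC-CM it was 85.5, 110 and 93.2 CPM, so ORC stood apart here too. The part of the interferon response in the member values was not tested. Leaving out ORC from the TLR-MSC-CM group brought the median to −0.08. For 11 of 68 members all TLR-MSC-CM libraries lay below all resting MSC-CM libraries, against 5.12% of all genes, and 23 of 68 were lower in each donor, against 12.4%. Same-donor synoviocyte libraries did not pair (median correlation 0.0415). With either activated medium, values by donor in these cells therefore do not measure consistency over paired libraries.

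RPL28, a large subunit protein, had the smallest p-value. It stood at 293, 262 and 312 CPM with TLR-MSC-CM and at 325, 361 and 328 CPM with resting MSC-CM, without overlap (log2 fold change −0.24, SE 0.08, adjusted p = 0.494). RPL36 was lower as well, at 2.81, 4.38 and 4.07 CPM against 4.82, 5.74 and 5.81 CPM (log2 fold change −0.57, SE 0.20), on few counts, and RPS15A had a log2 fold change of −0.23 (SE 0.09). The 14 proliferation genes went the same way, with 11 of them lower at an unadjusted p-value under 0.05 and 0 called. Their sum in donor ORC was 895 CPM against 1618 CPM with resting MSC-CM, and its part in the member values was not tested.

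With STING-MSC-CM the synoviocyte share was 2.47%, 2.53% and 2.59%, and 62 of 68 members were negative (median −0.10). The donor medians were −0.11, −0.14 and −0.01. No member passed the test, 0% of all genes were called by edgeR and 0 genes by DESeq2, and 4 members, all lower, had an unadjusted p-value under 0.05, against 3.95% of all genes that were lower at that level. For 21 of 68 members the 3 libraries lay below all resting MSC-CM libraries, against 6.59% of all genes, and 33 of 68 were lower in each donor, against 12.5%. RPL28 stood at 303, 299 and 294 CPM (log2 fold change −0.19, SE 0.08, adjusted p = 0.634). The 14 proliferation genes also had negative values here, with a median of −0.37, 11 of them at an unadjusted p-value under 0.05 and 0 called, and their sum was 1082, 1028 and 1176 CPM against 1339, 1618 and 1178 CPM. Their part in the member values was not tested. RPS2, at the mRNA entry site of the small subunit, stood at 1061, 1027 and 1153 CPM against 1188, 1499.5 and 1160.1 CPM (log2 fold change −0.26, SE 0.11), and RPL3, beside the peptidyl transferase centre, at 794, 828 and 861 CPM against 900.3, 1034 and 891 CPM (log2 fold change −0.20, SE 0.09). Both were without overlap, and in each the distance was widest in donor ORC. Between the STING and TLR media the median was 0.04, and −0.02 with ORC left out of the TLR-MSC-CM group. RPS29 (0.13), RPL36AL (0.12) and RPS10 (0.12, on few counts) had the smallest p-values there, with 294 genes (2.02%) and 0 members at an unadjusted p-value under 0.05, and 0 genes (0%) called by either tool. No member lay below TLR-MSC-CM in every library, against 3.58% of all genes, and 3 of 68 lay above it in every library (RPS29, RPS10 and RPL30), against 3.64%.

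In chondrocytes the TLR-MSC-CM share was 2.17%, 2.64% and 2.36%, and the median log2 fold change from resting MSC-CM was 0.02. RPL36AL (0.14), RPS10 (0.12, on few counts) and RPL35A (0.09) had the smallest p-values on the higher side. With STING-MSC-CM the share was 2.22%, 2.39% and 2.15%, and 64 of 68 members were negative (median −0.10, donor medians −0.03, −0.15 and −0.13). The summed level of the 9 interferon-induced genes was 104, 167 and 994 CPM in PC, ORC and AG1, against 88.2, 93.1 and 93.3 CPM with resting MSC-CM. AG1 thus stood apart in that response, and its part in the member values was not tested. RPL22, a large subunit protein that also binds RNA outside the ribosome, stood at 129, 118 and 114 CPM against 142, 151 and 133 CPM, without overlap (log2 fold change −0.24, SE 0.12). RPS4X (−0.44) and RPL11 (−0.24) followed, both on few counts. Against TLR-MSC-CM the median was −0.13, and −0.03 with ORC left out of the TLR-MSC-CM group, and RPS10 (−0.25, on few counts), RPL22 (−0.23) and RPS12 (−0.18) had the smallest p-values. All STING-MSC-CM libraries lay below all resting ones for 4 of 68 members, against 1.7% of all genes, and 43 of 68 were lower in each donor, against 11.9%. They lay below all TLR-MSC-CM libraries for 2 of 68 members, against 1.8%, and TLR-MSC-CM lay below resting MSC-CM for 0 of 68, against 1.58%. In these 3 comparisons, of which TLR-MSC-CM against resting comes first and STING-MSC-CM against TLR-MSC-CM last, 80, 130 and 116 genes (0.559%, 0.909% and 0.811%) and 0 members had an unadjusted p-value under 0.05, and neither edgeR (0% called) nor DESeq2 called any gene. As in MSC, these fits had no term for donor, although same-donor chondrocyte libraries correlated at 0.532 or more. With donor as a block no member was called either. The absence of a call does not show that the members were unchanged.

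In macrophages the TLR-MSC-CM share was 1.69%, 1.70% and 2.29%, with the value of donor AG1 apart from the other two, and the median log2 fold change from resting MSC-CM was 0.02. RPSA (0.14), RPL6 (0.10) and RPS2 (0.10) had the smallest p-values on the higher side, of which RPL6 and RPS2 turned negative without the AG1 library. With STING-MSC-CM the share was 1.65%, 1.57% and 1.73%, and 65 of 69 members were negative (median −0.14, donor medians −0.00, −0.17 and −0.25). RPL10 stood at 491, 469.9 and 464 CPM against 496, 546 and 601 CPM, without overlap, although the PC libraries nearly met (log2 fold change −0.20, SE 0.11, adjusted p = 0.907). RPL35 (−0.30) and RPS4X (−0.35, on few counts) had the next smallest p-values. With AG1 left out of the resting MSC-CM group the median was −0.05. Every STING-MSC-CM library lay below every resting one for 7 of 69 members, against 5.79% of all genes, and 34 of 69 were lower in each donor, against 18.7%.

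Against TLR-MSC-CM the macrophage median was −0.15, and −0.00 with AG1 left out of the TLR-MSC-CM group, so the difference rested on that library. For 11 of 69 members the groups did not overlap, against 7.09% of all genes, while TLR-MSC-CM lay below resting MSC-CM for 0 of 69, against 2.37%. RPLP0 stood at 703, 650.0 and 627 CPM with STING-MSC-CM and at 759, 701 and 860.4 CPM with TLR-MSC-CM, the log2 fold change of RPL10 was −0.25 (SE 0.11, adjusted p = 0.736) and that of RPSA was −0.22. The AG1 library was the highest of the 3 TLR-MSC-CM libraries for RPLP0. Over the 3 macrophage comparisons edgeR called 0 genes (0%), with 320, 717 and 994 genes (2.13%, 4.76% and 6.6%) and 0 members at an unadjusted p-value under 0.05, and DESeq2 called 0, 5 and 28 genes and 0 members. These fits had no term for donor either, so the members cannot be called unchanged. Whether the media acted differently in 2 cell types was tested by an interaction term for each pair of cell types and each activated medium. In these 6 tests no gene was called by edgeR (0%). For the response to TLR-MSC-CM, 1.72% of all genes had an unadjusted p-value under 0.05 between chondrocytes and synoviocytes, 3.99% between macrophages and synoviocytes and 2.64% between macrophages and chondrocytes, and for the response to STING-MSC-CM the shares were 1.74%, 4.38% and 3.59%, in each case with 0 members. DESeq2 called 0 to 4 genes and 0 members. RPSA had a difference in TLR-MSC-CM response of 0.36 between macrophages and synoviocytes (SE 0.18, adjusted p = 1). The absence of a call does not show that the media acted alike in these cells.

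Between cell types the members did pass the test, although each cell type came from 1 horse and p-values measure only the spread between libraries. With resting MSC-CM, 62 of 68 members tested differed between macrophages and synoviocytes, where 71.6% of all 15599 genes were called. Of these members 60 were lower in macrophages, against 35.1% of all genes, and 2 were higher, against 36.6%. The median log2 fold change was −0.61, while genes of like abundance had a median of 0.08. Large subunit members were called lower in 34 of 36 cases and small subunit members in 25 of 29. For 60 members every macrophage library lay below every synoviocyte library, against 37.6% of all genes.

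RPLP0, the stalk protein, had the largest negative value among them. It stood at 731, 724 and 742 CPM in macrophages and at 1762, 1577 and 1750.2 CPM in synoviocytes (log2 fold change −1.22, SE 0.11, adjusted p = 3.45e-06). RPS19, a small subunit protein whose loss causes Diamond-Blackfan anaemia in humans, stood at 217, 227 and 282 CPM against 513, 509.6 and 522 CPM (log2 fold change −1.10, SE 0.12, adjusted p = 9.76e-06). RPS3A stood at 341, 353 and 396 CPM against 746, 691 and 664 CPM (log2 fold change −0.95, SE 0.11, adjusted p = 1.57e-05). The 2 groups were far apart for all 3 genes, and AG1 was the highest macrophage library in each.

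RPS6 stood at 304, 354 and 374 CPM in macrophages and at 592, 629.7 and 574 CPM in synoviocytes (log2 fold change −0.80, SE 0.13). RPSA stood at 297, 322 and 313 CPM against 576, 653 and 568 CPM (log2 fold change −0.95, SE 0.12). RPS15, which with RPL35A and RPS21 varied most over the 45 libraries, stood at 193, 212 and 265 CPM against 395, 438 and 424 CPM (log2 fold change −0.91, SE 0.15). None of these overlapped. RPL3, RPL35A (−0.93), RPS21 (−0.85), RPL5 (−0.69), RPL11 (−0.68) and RPS27A (−0.45) were also lower, and RPL13A (−0.35, adjusted p = 0.0405) passed narrowly, a call lost with DESeq2 size factors, with library sizes only and with each single library left out except the AG1 macrophages. RPS28, RPS10, RPL32, RPLP2, RPS9 and RPS29 did not pass, of which RPS28 (adjusted p = 0.0381) and RPS10 (0.0266) did with MSC donor as a block. RPLP2 is a partner of RPLP0 in the stalk, and its log2 fold change was −0.15 (SE 0.15, adjusted p = 0.385).

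**Figure D3:**
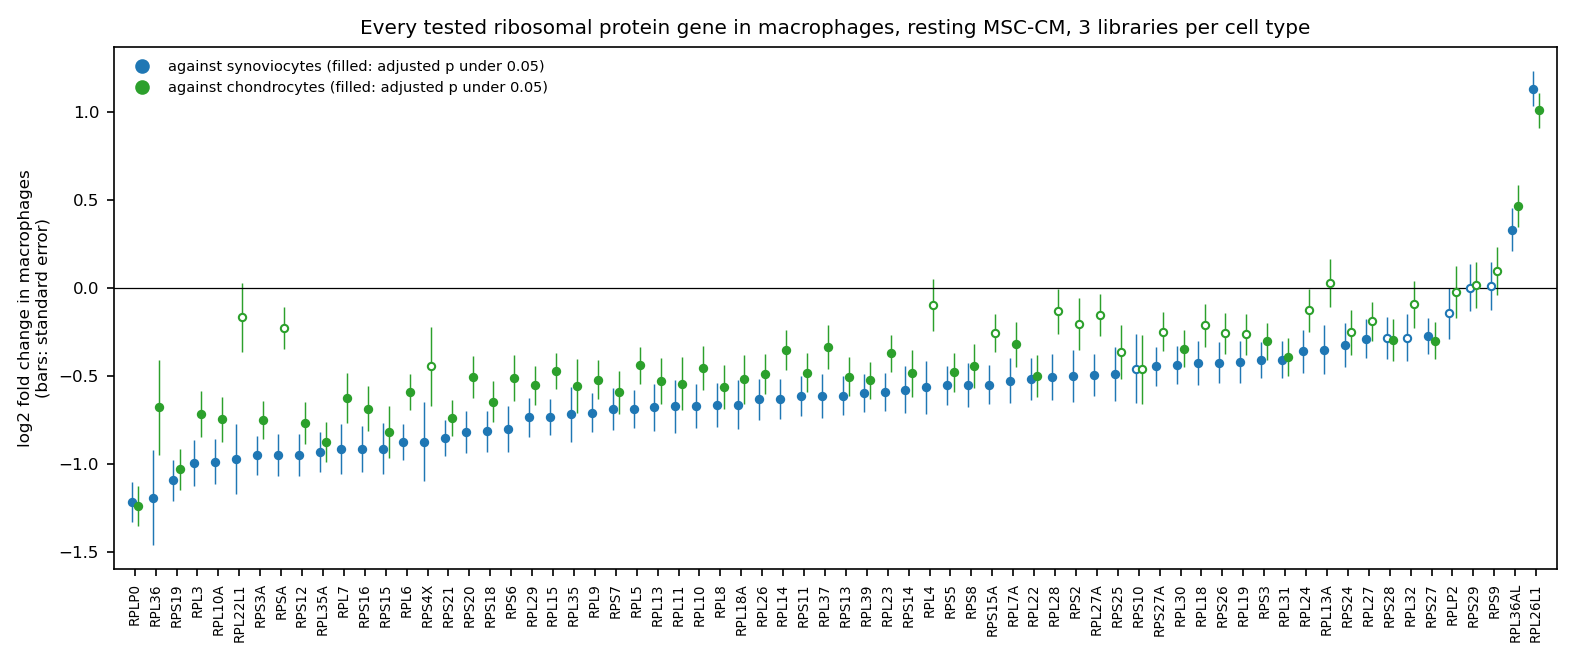
Log2 fold change of each of the 68 tested members in macrophages against synoviocytes (blue) and against chondrocytes (green), with resting MSC-CM and 3 libraries per cell type. Bars are standard errors, filled points have an adjusted p-value under 0.05, and genes are ordered by the first comparison, from RPLP0 at −1.22 to RPL26L1 at 1.13.

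Against chondrocytes, 46 of 68 members differed, where 71.5% of all genes were called. Of these 44 were lower in macrophages, against 34.9% of all genes, and 2 higher, against 36.6%. The median was −0.45, against 0.07 in genes of like abundance, and 49 members lay below chondrocytes in every library, against 35.6%. RPLP0 (−1.24, chondrocytes at 1809, 1609 and 1788 CPM), RPS19 (−1.03) and RPL35A (−0.88) again had large negative values, without overlap in RPLP0. RPSA (−0.23, adjusted p = 0.103), RPS27A (−0.25, adjusted p = 0.0617), RPL22L1 (−0.17), RPL13A (0.03) and RPLP2 (−0.03) did not pass. With MSC donor as a block, RPS10 (−0.47 without it) passed and RPL36 (−0.68 without it) did not.

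RPL26L1 and RPL36AL were the members that were higher in macrophages, in both comparisons. RPL26L1 stood at 394, 385 and 369 CPM in macrophages, at 186, 155 and 181 CPM in synoviocytes and at 197, 179 and 196 CPM in chondrocytes with resting MSC-CM. The log2 fold change was 1.13 against synoviocytes (SE 0.10, adjusted p = 2.33e-06) and 1.01 against chondrocytes (adjusted p = 5.71e-06). Its partner RPL26, which lies near the exit tunnel, went the other way, with 162, 166 and 197 CPM in macrophages, 282, 273 and 258 CPM in synoviocytes and 245, 272 and 223 CPM in chondrocytes (log2 fold change −0.64 against synoviocytes, SE 0.11, adjusted p = 0.000515). No library of one cell type reached the range of macrophages for either gene.

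The counts of RPL26L1 were 22.2% to 36.2% of those of RPL26 in untreated MSC, 57.0% to 70.1% in synoviocytes with resting MSC-CM, 65.8% to 88.1% in chondrocytes and 188% to 243% in macrophages. These are ratios of counts within a library and not per length, so they compare libraries and not the levels of the 2 genes. Over all 11 libraries of each joint cell type, the lowest macrophage ratio was 170% and the highest ratio of the other cells 93.4%. After the STING agonist the ratio in MSC was 29.6% to 52.7%, overlapping untreated MSC. How reads of these near copies were divided was not tested.

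**Figure D4:**
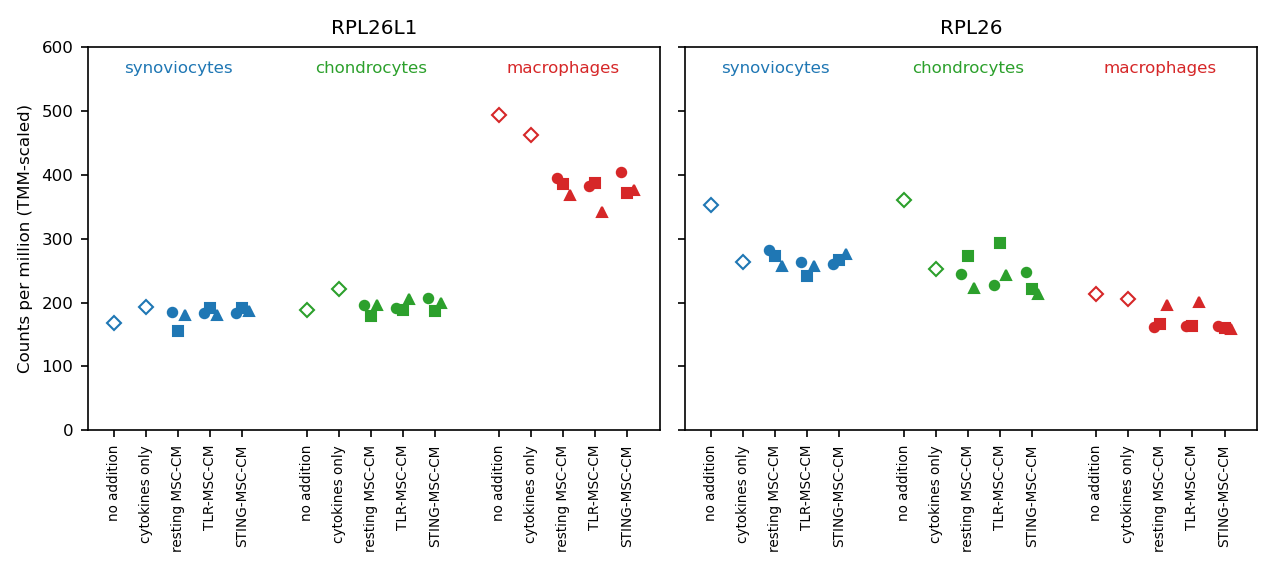
CPM of RPL26L1 (left) and RPL26 (right) in every library of the 3 joint cell types, by condition, with 1 point per library, shape by MSC donor and open diamonds for conditions with a single library. In macrophages with resting MSC-CM RPL26L1 lies at 369 to 394 CPM and RPL26 at 162 to 197 CPM, while in synoviocytes RPL26L1 lies at 155 to 186 CPM and RPL26 at 258 to 282 CPM.

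RPL36AL, a paralogue of RPL36A, stood at 103, 118 and 138 CPM in macrophages, at 94.6, 105 and 85.5 CPM in synoviocytes and at 90.7, 84.2 and 85.9 CPM in chondrocytes. It overlapped synoviocytes (log2 fold change 0.33, SE 0.12, adjusted p = 0.0305), a call lost when the synoviocyte library of PC or AG1 or the macrophage library of ORC or AG1 was left out, and lay above chondrocytes (0.46, SE 0.12, adjusted p = 0.0055). RPL22L1 went with the other members, lower in macrophages than in synoviocytes (−0.97), as was its partner RPL22 (−0.52). RPL3L and RPL10L had too few counts for a test. The lymphoid markers in the macrophage cultures move with all macrophage comparisons and their part was not tested.

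Between chondrocytes and synoviocytes with resting MSC-CM, 2 of 68 members differed by edgeR and 10 by DESeq2. Both members called by edgeR were lower in chondrocytes, where 18.1% of all genes were called, 9.84% lower and 8.31% higher. RPSA stood at 341, 416 and 338 CPM in chondrocytes and at 576, 653 and 568 CPM in synoviocytes, without overlap (log2 fold change −0.72, SE 0.12, adjusted p = 0.0020). RPL22L1 stood at 14.0, 19.8 and 15.7 CPM against 25.7, 37.2 and 22.99 CPM (log2 fold change −0.81, SE 0.20, adjusted p = 0.0168), a call lost without the synoviocyte library of donor ORC or without the chondrocyte library of PC or of AG1. The median over the members was −0.16, against 0.00 in genes of like abundance, and 18 of 68 members lay below synoviocytes in every library, against 19.5% of all genes. RPL4 followed with −0.47 (adjusted p = 0.0552). The count by edgeR was 16 without the chondrocyte library of donor ORC, and RPL28 (−0.37, adjusted p = 0.0725) passed with MSC donor as a block.

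Other genes of the translation machinery are set beside the shares of all genes, of which 36.6% were called higher and 35.1% lower in macrophages than in synoviocytes. Of 71 mitochondrial ribosomal protein genes tested, 34 were higher and 9 lower in macrophages than in synoviocytes (median log2 fold change 0.29), with MRPS10 at 1.60, MRPL35 at 1.59 and MRPL37 at −0.73. Of 94 ribosome biogenesis genes, 47 were higher and 11 lower (median 0.27). Of 36 translation factors, 14 were higher and 11 lower (median 0.05), shares near those of all genes. The cap-binding protein EIF4E (1.74), EEF1A2 (9.03) and EIF2S1 (0.84) were higher, and the elongation factors EEF1A1 (−1.45) and EEF2 (−1.06) and EIF3K (−0.69) were lower. A further mixed list held 7 genes, not all of them part of the ribosome or of the translation machinery. Of these, 4 were lower and none higher, including the ribosome-bound scaffold RACK1 (−0.89), NAP1L1 (−1.16) and TPT1 (−0.64). Against chondrocytes the counts were 36 higher and 5 lower for mitochondrial ribosomal proteins, 56 and 7 for ribosome biogenesis and 15 and 8 for translation factors, where 36.6% of all genes were called higher and 34.9% lower.

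The difference with cytokines, read after they had been washed out, rests on 1 library per condition, so it has no replicate check and was not tested. In synoviocytes these libraries also carry different donor names in their titles, PC with cytokines and ORC with no addition. With the cytokines, 67 of 68 members were lower in synoviocytes (median log2 ratio −0.50, against 0.01 in genes of like abundance), where 49.6% of all genes were lower. In chondrocytes 66 of 68 members were lower (−0.46, against 0.02), where 48.7% of all genes were, and in macrophages 66 of 69 (−0.12, against −0.00), where 47% were. The share of counts went from 3.65% to 2.53% in synoviocytes, from 3.58% to 2.46% in chondrocytes and from 2.11% to 2.00% in macrophages. For 67 of 68 members the synoviocyte library with no addition lay above all 10 other synoviocyte libraries, against 22.1% of all genes. The same held for 64 of 68 members in chondrocytes, against 20.5%, and for 42 of 69 in macrophages, against 12.8%.

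In synoviocytes RPS6 went from 889.8 CPM with no addition to 564 CPM with cytokines, RPL3 from 1416 to 853 CPM and RPSA from 849.8 to 528 CPM. In chondrocytes RPS6 went from 833 to 483 CPM and RPSA from 623 to 365 CPM. RPLP0 moved less, from 2278 to 1729.7 CPM in synoviocytes and from 2486 to 1986 CPM in chondrocytes. In macrophages RPLP0 stood at 862 and 854 CPM, and RPL11 had a negative value on few counts (14.3 to 9.12 CPM). The members that were higher with cytokines were RPL26L1 in synoviocytes (log2 ratio 0.20), RPL26L1 (0.22) and RPL36AL (0.07) in chondrocytes, and RPS25 (0.03) and RPL36 (0.02) in macrophages.

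**Figure D5:**
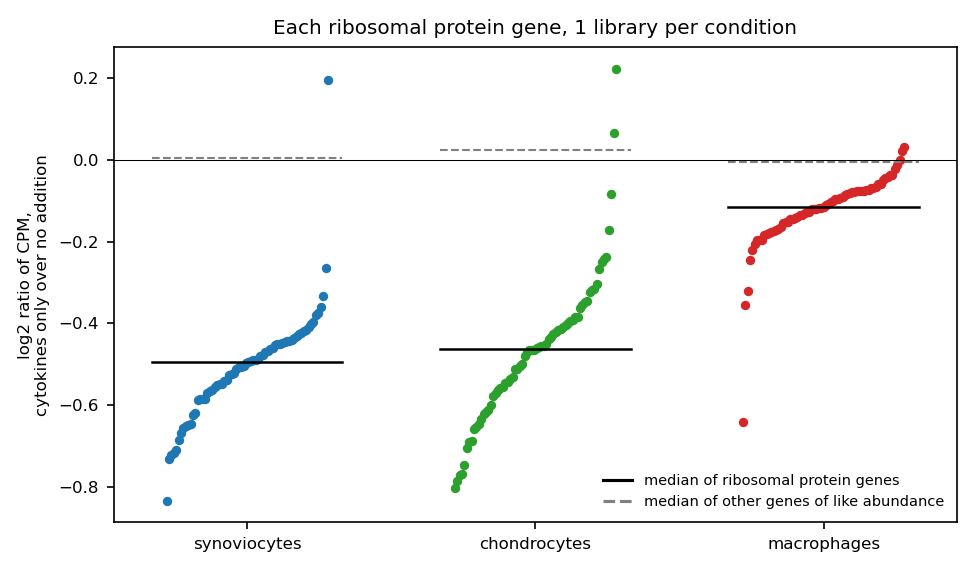
Log2 ratio of CPM with IL-1β plus TNF-α only over no addition for each member in the 3 joint cell types, with 1 library per condition, the median of the members as a black line and that of other genes of like abundance as a dashed grey line. The medians are −0.50 in synoviocytes, −0.46 in chondrocytes and −0.12 in macrophages, while the grey lines lie between −0.00 and 0.02.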

How the data were processed

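The authors trimmed reads of polyA libraries with cutadapt 1.12, used STAR for the alignment to EquCab 3.0 and HTSeq 0.11.0 for the counting, and kept protein-coding genes. What they deposited are raw counts per gene, without normalization. The strand setting is not given in the sources used here. Of the large values, 41 are rounded, none of them of a member, and 13 genes of the mitochondrial genome are listed at 0. A count of 3, taken as the floor, is 0.0554 to 0.128 CPM, for counting error only.

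Genes with at least 10 counts in total in a fit were tested with edgeR 4.0.16 (TMM, quasi-likelihood, R 4.3.3) over the 3 replicated conditions of a cell type, over 12 MSC libraries for CpG, and over the joint cells for cell types and interactions. Adjusted p-values (Benjamini-Hochberg, threshold 0.05) cover all genes of a comparison. The standard error is the fold change divided by the root of F. Within-donor differences use log2(CPM + 0.1). The fits were run on simulated counts with a single fixed dispersion and no donor effect, unlike these data. That run therefore does not show how often real differences would be called here.

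The members and gene lists were chosen with earlier results of these data known. Named members are paralogues with their partners, members with known further roles, the 3 of smallest p per direction and the most variable ones. After the values were seen, this was narrowed, where no member was called, to the 3 of smallest p on the side of the median (and RPL26L1 after the STING agonist), and the percentile band for like abundance and the limit of 40000 counts were set. Individual examples of the cytokine libraries were also picked after their values were seen.

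MSC donors pair the MSC libraries (same animal). Deviations from group means of same-donor libraries correlated at 0.667 or more in MSC, 0.532 in chondrocytes and 0.290 in macrophages, and at −0.324 to 0.297 in synoviocytes, where they do not pair. Alternatives were other scalings, filters, DESeq2 1.42.0, a donor block and leaving out each library. The authors' DESeq2 results were not used.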

Additional observations from a re-analysis of the deposited data

How the results depend on the processing

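Under other scalings, no or another filter, TMM factors set without the members, DESeq2 and the donor block, no count of members called moved by more than 1.5 times and no median changed sign, with these exceptions. Medians close to 0 changed sign in 2 differences of response: for the TLR medium between macrophages and chondrocytes (0.0083) with DESeq2 size factors (−0.0016), no filter (−0.0023) and DESeq2 (−0.0015), and for the STING medium between chondrocytes and synoviocytes (−0.0214) with library sizes only (0.002). With DESeq2, 10 members were called between chondrocytes and synoviocytes, and RPLP2 between macrophages and chondrocytes was 0.0029 with DESeq2 size factors and 0.003 with DESeq2, on the other side of 0. With MSC donor as a replicate block, 3, 64 and 46 members were called between chondrocytes and synoviocytes, macrophages and synoviocytes, and macrophages and chondrocytes, and the MSC medians were −0.0878 (TLR3 agonist), −0.3217 (STING agonist), −0.2453 (STING against TLR3 agonist) and −0.075 (CpG). The block added the calls of RPL28 in the first, of RPS10 and RPS28 in the second and of RPS10 in the third of these comparisons, and ended that of RPL36 in the third; it changed no other call of a member. Without the 10 most abundant other genes of each library in the denominator, the mean share was 7.62% for CpG. With resting, TLR and STING media it was 3.25%, 2.97% and 3.03% in synoviocytes and 2.86%, 2.88% and 2.68% in chondrocytes, and in macrophages 1.98% with resting and 1.83% with STING media. The causes were not tested.

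Leaving out 1 library at a time, the members called between chondrocytes and synoviocytes ranged from 1 to 16, and their median from −0.2652 to −0.1278. The calls ranged from 56 to 65 between macrophages and synoviocytes and from 38 to 53 between macrophages and chondrocytes. The median ranged from −0.3925 to 0.2307 after the TLR3 agonist, from −0.5157 to −0.2443 after the STING agonist, from −0.5601 to 0.0449 between them, from −0.206 to −0.0022 between STING and TLR media in macrophages, and from −0.1328 to 0.0279 for the STING medium response of macrophages against synoviocytes. Single members that crossed 0 were, after the TLR3 agonist, RPL5 (−0.4175 to 0.0128), RPL4 (−0.3679 to 0.0186) and RPL7 (−0.4347 to 0.0561). In macrophages with the TLR medium they were RPL6 (−0.022 to 0.1408) and RPS2 (−0.0237 to 0.1549). Between chondrocytes and synoviocytes they were RPS27 (−0.0087 to 0.0725), RPLP0 (−0.0241 to 0.0732) and RPL22 (−0.069 to 0.0252). Between macrophages and synoviocytes it was RPS9 (−0.0638 to 0.1069), and between macrophages and chondrocytes RPLP2 (−0.1955 to 0.101) and RPL13A (−0.054 to 0.1477). In the TLR medium response of macrophages against chondrocytes RPL14 (−0.0189 to 0.1604) crossed 0, and in the STING medium response RPS23 (−3.7751 to 0.116), which has at most 13 counts in a library.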
